A study of Mus musculus with 6 samples.

Results

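Coagulation and complement genes encode proteins of 2 blood-borne protease cascades, and most of these proteins are made by hepatocytes and secreted into plasma. In coagulation, zymogens are cleaved in sequence until thrombin turns fibrinogen into fibrin, while protein C, protein S and plasmin hold the clot in check. In complement, the classical, lectin and alternative pathways meet at C3, and the terminal components assemble a pore in the target membrane. Some members are known from other cells of the liver: C1q, properdin and the C5a receptor from macrophages, and factor VIII and von Willebrand factor from endothelium.

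A list of 41 such genes was read from Clariom S mouse arrays of liver RNA, by taking each row of the deposited table whose gene symbol equals a listed name. This gave 41 probe sets for 40 genes, of 22203 probe sets for 21977 symbols. C2 had 2 probe sets, and Klkb1, plasma kallikrein, appeared only on a probe set that it shares with Cyp4v3 and was not counted. Of the 41 probe sets, 18 were coagulation and 23 complement. The livers came from male C57BL/6 mice aged 8 weeks, 3 labelled WT and 3 labelled HMGB2-KO. The second label names a knockout of the DNA-bending chromatin protein HMGB2, and the protein itself was not measured here. The labels name no treatment, and neither the deleted part of Hmgb2 nor a promoter or cell type in which it is deleted is given in the sources used here. The stated purpose was a screen for genes related to HMGB2 expression. Whether each liver came from its own mouse is not said outright, so p-values cover only the scatter of these samples, and part of it may be technical.

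The deposited values were read as log2 and are centred gene by gene, so they carry no absolute level: a value says how far an array lies from a zero particular to that probe set, and levels cannot be compared between genes or used to check that a marker is present. Hmgb2 itself read 0.48, 0.62 and 0.38 in WT livers 1, 2 and 3 and -0.70, -0.38 and -0.48 in HMGB2-KO livers 1, 2 and 3. WT liver 2 stood apart, with a median over all probe sets of 0.26 against -0.05 to 0.01 on the other 5 arrays. That offset was not the same for every kind of gene, since 8 hepatocyte markers, without Apoa2, had medians of 0.07, 0.09 and 0.00 in WT and 0.01, -0.02 and -0.01 in HMGB2-KO. The apolipoprotein gene Apoa2 was left out of that median because it read -7.00 in WT liver 2. Changes below are HMGB2-KO minus WT as deposited, and the median probe set lay at -0.12, so a probe set at 0 stood above the median one. Of all probe sets, 77.4% had a change below 0.

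The genes of the 3 liver-made fibrinogen chains lie side by side, in the order Fgg, Fga and Fgb on chromosome 3 with no other coding gene between them in GRCm38.p6. Their promoters are printed because these 3 genes had a shared low array and because fibrinogen is a classic target of interleukin-6. That array, described further down, was also the lowest for other coagulation genes. Each is 250 bases before to 50 after the RefSeq gene start, 5′ to 3′ on the strand of the gene, from the RefSeq table of build GRCm38.p6. Capitals mark CTGGGA, the core of the type II interleukin-6 response element, and GTTAAT, part of the site of hepatocyte nuclear factor 1, each searched on both strands, so that TCCCAG and ATTAAC are their reverse complements.
Fga, chr3:83025903-83026202, plus strand: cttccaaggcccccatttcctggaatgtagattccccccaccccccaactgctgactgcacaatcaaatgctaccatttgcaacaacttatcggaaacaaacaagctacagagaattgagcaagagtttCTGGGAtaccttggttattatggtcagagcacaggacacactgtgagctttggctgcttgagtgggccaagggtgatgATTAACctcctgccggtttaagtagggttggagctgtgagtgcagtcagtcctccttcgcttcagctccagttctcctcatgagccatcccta
Fgb, chr3:83049814-83050113, minus strand: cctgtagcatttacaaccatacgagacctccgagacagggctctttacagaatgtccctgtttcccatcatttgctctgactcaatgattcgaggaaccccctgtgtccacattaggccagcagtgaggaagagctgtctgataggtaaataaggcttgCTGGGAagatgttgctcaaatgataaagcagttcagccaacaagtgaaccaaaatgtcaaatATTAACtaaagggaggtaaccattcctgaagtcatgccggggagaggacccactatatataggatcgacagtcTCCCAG
Fgg, chr3:83007474-83007773, plus strand: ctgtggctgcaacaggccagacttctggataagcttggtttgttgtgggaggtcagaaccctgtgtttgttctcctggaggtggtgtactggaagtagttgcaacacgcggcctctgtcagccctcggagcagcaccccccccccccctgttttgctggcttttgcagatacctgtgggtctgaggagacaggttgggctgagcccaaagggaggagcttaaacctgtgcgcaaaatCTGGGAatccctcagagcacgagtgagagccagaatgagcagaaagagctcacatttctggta
CTGGGA stood in all 3 windows, with 1 match in Fga, 2 in Fgb and 1 in Fgg, and in 31.8% of all 32851 promoter windows of the same length. GTTAAT had 1 match each in Fga and Fgb and 0 in Fgg, and stood in 7.1% of all windows. Of the members, 32 genes had 34 windows in the table, of which 19 held CTGGGA and 9 held GTTAAT. A match describes the letters of a window and does not show that a factor binds there.

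No coagulation or complement gene was called different between the genotypes by the test used. The same test did not call Hmgb2 either, at -1.01 ± 0.15 (SE, limma unadjusted p 0.00019, adjusted p 0.469). limma called 0 of the 41 probe sets at an adjusted p of 0.05, where it called 0% of all probe sets. At an unadjusted p under 0.05 it had 0 of 41, against 4.92% of all probe sets, and a fold of at least 1.5 at that level held for 0 of 41, against 1.62% of all. The smallest unadjusted p of the list was 0.093, shared by Mbl2 and the second probe set of C2. Changes ran from -0.44 for Mbl2 to 0.37 for that C2 probe set. Of the 41, 28 were smaller than their own standard error, against 60.2% of all probe sets.

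The 95% intervals bounded the size of the changes. For all 41 probe sets the 95% interval of the change lay between -1 and 1, that is within 2-fold either way, which held for 88.9% of all probe sets. For 31 of 41 it lay within 1.5-fold either way, against 50.1% of all. These intervals are per probe set and are not adjusted for their number. In the values as deposited, the members also varied less among livers of a genotype than most probe sets did. The median within-genotype SD was 0.15 for the 41 and 0.22 for all, and 9 of the 41 exceeded the latter. These SDs and intervals include the offset of WT liver 2, which was the highest array for 60.1% of all probe sets and for 14 of the 41. With 3 arrays per genotype, a change of any size inside its interval remains possible.

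**Figure D1:**
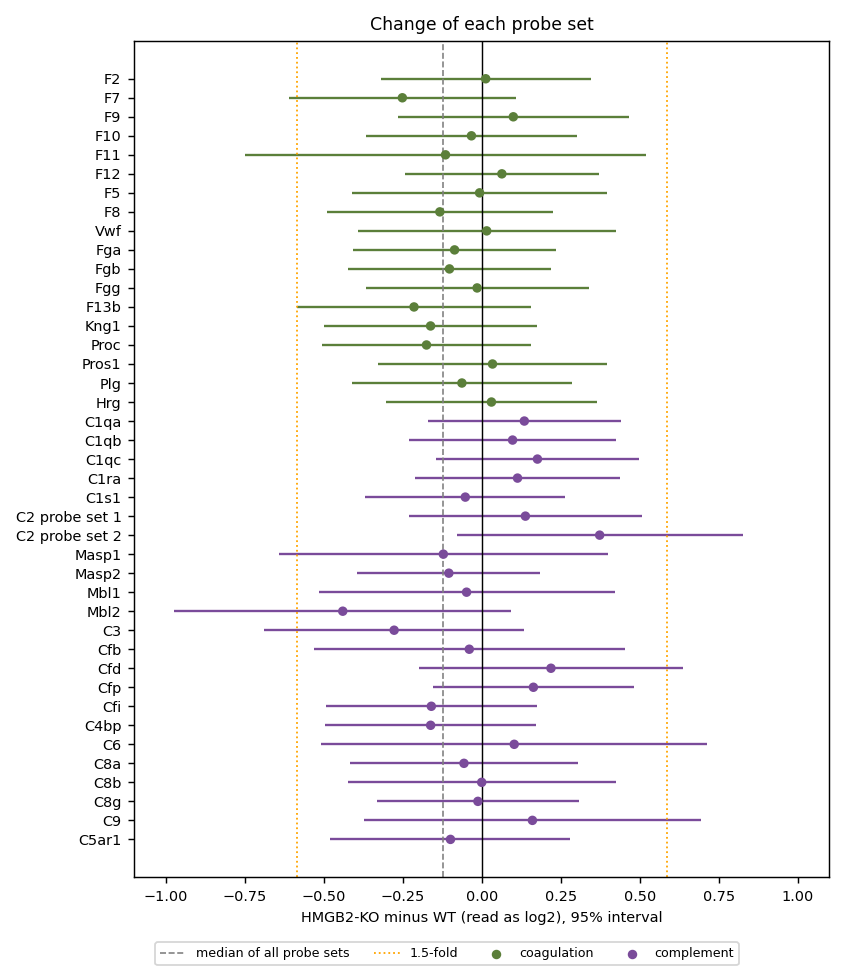
Change of each coagulation (green) and complement (purple) probe set, HMGB2-KO minus WT, on the scale read as log2, with the 95% interval from limma. Dotted lines mark a fold of 1.5 and the dashed line the median of all probe sets at -0.12; every interval crosses 0 and stays between -1 and 1.

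The zymogens of the clotting cascade had changes from -0.25 to 0.10 over 6 probe sets. Prothrombin, F2, the precursor of thrombin, read 0.15, 0.03 and 0.10 in WT livers 1, 2 and 3 and 0.24, -0.07 and 0.16 in HMGB2-KO livers 1, 2 and 3. The HMGB2-KO livers held both the highest and the lowest F2 value, and the change was 0.01 with an interval of -0.32 to 0.35. F7, which starts coagulation with tissue factor, read 0.07, 0.37 and 0.44 in WT and 0.11, -0.07 and 0.08 in HMGB2-KO. WT liver 1 lay among the HMGB2-KO values, so the groups overlapped, and the change of -0.25 ± 0.15 (SE, n = 3 per genotype) had a limma adjusted p of 0.852. F10, whose activated form cleaves prothrombin and whose gene is next to F7, stood at -0.03 ± 0.14 (SE). F9, the factor missing in hemophilia B, stood at 0.10 ± 0.16, and F12, which starts the contact pathway, at 0.06 ± 0.13. F11, which activates factor IX, had the widest interval of the list, -0.75 to 0.52, and read 0.96 in WT liver 2 but 0.11 in WT liver 3, and 0.80 in HMGB2-KO liver 1 but 0.05 in liver 2.

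The fibrinogen chains, the substrate of the clot, shared their lowest array, which was the lowest for 11 of the 18 coagulation probe sets. Fga, the alpha chain, read 0.01, -0.08 and -0.04 in WT livers 1, 2 and 3 and -0.08, -0.28 and -0.01 in HMGB2-KO livers 1, 2 and 3. Fgb, the beta chain, read -0.21, -0.09 and -0.07 in WT and -0.12, -0.37 and -0.19 in HMGB2-KO. Fgg, the gamma chain, read -0.23, -0.23 and -0.17 in WT and -0.24, -0.43 and -0.01 in HMGB2-KO. HMGB2-KO liver 2 was lowest for all 3 chains. The other HMGB2-KO livers lay within or close to the WT range, except for Fgg in HMGB2-KO liver 3. There Fgg was highest, at -0.01, above the WT range of -0.23 to -0.17. The changes were -0.09 ± 0.14 for Fga, -0.10 ± 0.14 for Fgb and -0.01 ± 0.15 for Fgg (SE), with limma adjusted p of 0.919, 0.905 and 0.99. With arrays centred on their medians, all 3 changes took the other sign, at 0.03 for Fga, 0.02 for Fgb and 0.10 for Fgg.

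Among the cofactors and carriers, F8 and Vwf stand for endothelium. F8, the cofactor missing in hemophilia A, read 0.87, 1.09 and 0.76 in WT livers 1, 2 and 3 and 0.82, 0.63 and 0.88 in HMGB2-KO, all 6 above the zero of its probe set. Vwf, which carries factor VIII and tethers platelets, read -0.29, 0.27 and -0.01 in WT and 0.00, -0.10 and 0.11 in HMGB2-KO. The WT livers spanned the HMGB2-KO values for Vwf, and the changes were -0.13 ± 0.15 for F8 and 0.02 ± 0.18 for Vwf (SE). Of 12 markers of sinusoidal or other endothelial cells, 1 reached an unadjusted p under 0.05, Pecam1 at 0.43 ± 0.17 (SE), named after its value was seen. The list ran from -0.22 to 0.51, with a median of -0.07 and 8 of the 12 below 0, against 77.4% of all probe sets. The array means of the list ran from 0.62 to 0.88 in WT and from 0.65 to 0.78 in HMGB2-KO. F13b, the carrier subunit of the fibrin crosslinking enzyme, read 0.32, 0.47 and 0.14 in WT and 0.29, -0.04 and 0.04 in HMGB2-KO, which is a difference of -0.21 ± 0.16 (SE, limma adjusted p 0.852). Kng1, the kininogen that releases bradykinin, read 0.12, 0.12 and -0.13 in WT and 0.00, -0.14 and -0.23 in HMGB2-KO, where HMGB2-KO liver 1 lay inside the WT range. Its change was -0.16 ± 0.14 (SE). F5, the cofactor of factor X, stood at -0.01 ± 0.17.

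The brakes on coagulation did not pass the test either. Proc, whose activated form cuts factors V and VIII, read 0.49, 0.60 and 0.36 in WT livers 1, 2 and 3 and 0.41, 0.18 and 0.34 in HMGB2-KO. HMGB2-KO liver 1 lay inside the WT range, and the change was -0.17 ± 0.14 (SE, limma adjusted p 0.853), or -0.11 without HMGB2-KO liver 2. Pros1, the cofactor of protein C, stood at 0.03 ± 0.16, Plg, the precursor of the fibrin-cutting plasmin, at -0.06 ± 0.15, and Hrg, a histidine-rich glycoprotein that binds plasminogen and heparin, at 0.03 ± 0.14 (SE). Plg was among the 11 of 18 coagulation probe sets with their lowest value in HMGB2-KO liver 2. It read -0.32 there, against -0.12 to 0.04 in the other 5 livers.

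**Figure D2:**
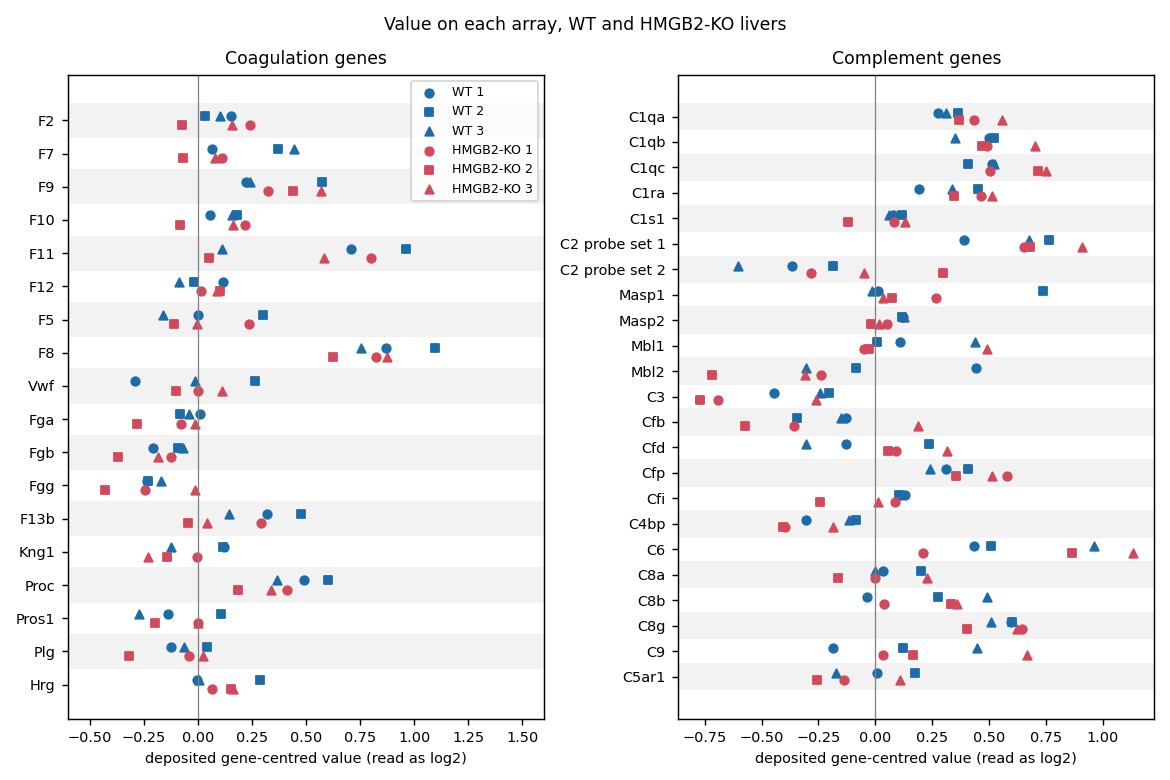
Deposited gene-centred value, read as log2, of every coagulation (left) and complement (right) probe set on each of the 6 arrays. WT livers are blue and HMGB2-KO livers red, with a circle, a square and a triangle for livers 1, 2 and 3; the colours intermix for nearly all genes and are separate for C1qa, Masp2 and Cfi.

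All 7 probe sets of the classical pathway lay above the median probe set, 6 of them also lay above 0, and their median change was 0.13. All 6 probe sets of the terminal pathway and receptor lay above the median probe set too, with a median change of -0.01. C1qa, which encodes 1 of the 3 chains of the recognition protein C1q, read 0.27, 0.36 and 0.31 in WT livers 1, 2 and 3 and 0.43, 0.37 and 0.55 in HMGB2-KO livers 1, 2 and 3. Its groups did not overlap, by a margin under 0.01 between WT liver 2 and HMGB2-KO liver 2, and the change was 0.13 ± 0.13 (SE, limma adjusted p 0.869). Groups that do not overlap with HMGB2-KO higher made up 0.779% of all probe sets, and groups that do not overlap either way made up 11.7%. The other chains overlapped: C1qb read 0.50, 0.52 and 0.35 in WT and 0.49, 0.47 and 0.70 in HMGB2-KO, which is a difference of 0.10 ± 0.14 (SE). C1qc read 0.51, 0.41 and 0.52 in WT and 0.50, 0.71 and 0.75 in HMGB2-KO, which is a difference of 0.18 ± 0.14 (SE, limma adjusted p 0.852). HMGB2-KO liver 3 was highest for all 3 chains, whose genes are neighbours on chromosome 4.

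C1q comes from macrophages in the liver, and in whole tissue more cells of a type cannot be told apart from more RNA per cell. Of 12 markers of Kupffer cells or macrophages, 0 reached an unadjusted p under 0.05, with a median change of 0.03. The array means of that list were 0.30, 0.57 and 0.30 in WT and 0.38, 0.30 and 0.48 in HMGB2-KO. HMGB2-KO liver 3, high for C1q, was also the highest HMGB2-KO liver for these markers. It was the highest array for 12 of the 23 complement probe sets as well. WT liver 2 was the highest liver for these markers, but for no C1q chain, and was lowest for C1qc, at 0.41. The changes ran from -0.25 to 0.17, with 7 above 0 and 5 below, where 77.4% of all probe sets lay below 0. Of the 12, only Slc40a1, the iron exporter ferroportin, had groups that did not overlap, at -0.24 ± 0.15 (SE). Such groups with HMGB2-KO lower made up 10.9% of all probe sets, and Slc40a1 was named after its value was seen. The part of macrophages in the C1q values was not tested.

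The proteases of the classical pathway pointed no single way. C1ra stood at 0.11 ± 0.14 (SE) and C1s1, its partner and neighbouring gene, at -0.05 ± 0.14. C2, the protease that with C4b cleaves C3, had probe sets that differed in size of change. The first read 0.39, 0.76 and 0.68 in WT livers 1, 2 and 3 and 0.66, 0.68 and 0.91 in HMGB2-KO, which is a difference of 0.14 ± 0.16 (SE, limma adjusted p 0.884). The second read -0.37, -0.19 and -0.60 in WT and -0.28, 0.30 and -0.05 in HMGB2-KO, which is a difference of 0.37 ± 0.19 (SE, limma adjusted p 0.852). WT liver 2 lay above HMGB2-KO liver 1 in the second probe set. The change of that probe set was 0.22 without HMGB2-KO liver 2 and 0.51 without HMGB2-KO liver 1. In the latter fit its limma unadjusted p was under 0.05, as for 3.75% of all probe sets. On arrays centred on their medians its change was 0.49. It was then 1 of the 2 member probe sets at an unadjusted p under 0.05, the other being Cfd at 0.34, where 3.83% of all probe sets reached that level.

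The lectin pathway, which recognises sugars on microbes, held the largest change of the list. Mbl2, mannose-binding lectin C, read 0.44, -0.08 and -0.30 in WT livers 1, 2 and 3 and -0.24, -0.72 and -0.31 in HMGB2-KO livers 1, 2 and 3. A high WT liver 1 and a low HMGB2-KO liver 2 stood at the ends, with the other 4 livers between -0.31 and -0.08, and the groups overlapped. The change was -0.44 ± 0.23 (SE, limma adjusted p 0.852), -0.23 without WT liver 1 and -0.60 without WT liver 3, where the unadjusted p was 0.0386 and 9.57% of all probe sets were under 0.05. Mbl1, mannose-binding lectin A, did not follow it, at -0.05 ± 0.20. Masp2, the protease that cleaves C4 and C2 for the lectins, read 0.12, 0.12 and 0.13 in WT and 0.05, -0.02 and 0.02 in HMGB2-KO. Its groups did not overlap, as in 10.9% of all probe sets with HMGB2-KO lower, and its change of -0.10 ± 0.12 (SE, limma adjusted p 0.886) lay within 0.02 of the median probe set. Masp1 stood at -0.12 ± 0.22, or 0.12 without WT liver 2, which read 0.74.

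C3, on which all 3 pathways converge, read -0.44, -0.20 and -0.24 in WT livers 1, 2 and 3 and -0.69, -0.77 and -0.26 in HMGB2-KO livers 1, 2 and 3. The HMGB2-KO livers split: livers 1 and 2 lay below every WT liver and liver 3 lay inside the WT range. The change was -0.28 ± 0.18 (SE, limma adjusted p 0.852), which ran from -0.43 without HMGB2-KO liver 3 to -0.18 without HMGB2-KO liver 2. Cfb, the protease subunit of the alternative C3 convertase, read -0.13, -0.35 and -0.15 in WT and -0.36, -0.57 and 0.19 in HMGB2-KO, and its change was -0.04 ± 0.21 (SE). Its HMGB2-KO liver 3 lay above every WT liver. HMGB2-KO livers 1 and 2 lay below every WT liver, liver 1 only just below WT liver 2.

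Cfd and Cfp also act in the alternative pathway. Cfd, also called adipsin and known as an adipocyte product, read -0.13, 0.24 and -0.30 in WT livers 1, 2 and 3 and 0.09, 0.05 and 0.32 in HMGB2-KO. WT liver 2 lay within the HMGB2-KO values, the change was 0.22 ± 0.18 (SE, limma adjusted p 0.855), and without WT liver 2 it was 0.37 with an unadjusted p of 0.0461, where 3.44% of all probe sets were under 0.05. Of 6 adipocyte markers 0 reached an unadjusted p under 0.05, the median change was -0.18, and the array means were 0.02, 0.28 and -0.13 in WT and 0.04, 0.14 and -0.22 in HMGB2-KO. HMGB2-KO liver 3, highest for Cfd, had the lowest mean of these markers. WT liver 2 was high for both, but its median over all probe sets was also high, at 0.26. The mean in HMGB2-KO liver 2 included Cidec at 1.29, and the list median there was -0.02. The part of adipocytes in the Cfd values was not tested. Cfp, properdin, which stabilises the alternative convertase, read 0.31, 0.41 and 0.24 in WT and 0.58, 0.36 and 0.51 in HMGB2-KO. HMGB2-KO liver 2 lay inside the WT range, and the change was 0.16 ± 0.14 (SE).

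The complement inhibitors lay near the median probe set. Cfi, the protease that inactivates C3b and C4b, read 0.13, 0.10 and 0.10 in WT livers 1, 2 and 3 and 0.09, -0.24 and 0.01 in HMGB2-KO. Its groups did not overlap and the change was -0.16 ± 0.14 (SE, limma adjusted p 0.862), or -0.06 without HMGB2-KO liver 2. C4bp, the C4b-binding protein, read -0.30, -0.09 and -0.11 in WT and -0.40, -0.41 and -0.18 in HMGB2-KO, with HMGB2-KO liver 3 inside the WT range. Its change was -0.16 ± 0.14 (SE). In all, groups did not overlap for 3 of the 41 probe sets, C1qa with HMGB2-KO higher and Masp2 and Cfi with HMGB2-KO lower, against the 11.7% of all probe sets given above.

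Among the terminal components, C9, C6 and C8b were highest in the liver numbered 3 of each genotype, as were the lectin gene Mbl1, C1qc and Fgg. These were 6 of the 41 probe sets, against 6.75% of all. C9, which polymerises into the pore, read -0.18, 0.12 and 0.45 in WT livers 1, 2 and 3 and 0.03, 0.16 and 0.67 in HMGB2-KO livers 1, 2 and 3, and the genotype change was 0.16 ± 0.23 (SE, limma adjusted p 0.909). C6, which joins the pore after C5b, read 0.43, 0.51 and 0.96 in WT and 0.21, 0.87 and 1.13 in HMGB2-KO, and Mbl1 read 0.11, 0.01 and 0.44 and -0.05, -0.03 and 0.49. In a fit with a term for the livers numbered 3, that term was 0.52 ± 0.16 for C9, 0.54 ± 0.21 for C6 and 0.46 ± 0.14 for Mbl1 (SE), with limma adjusted p of 0.589, 0.682 and 0.599. These were the 3 members under an unadjusted p of 0.05 for the term, of 41, against 7.15% of all probe sets, so the share was near the background. The pore subunits C8a, C8b and C8g stood at -0.06 ± 0.16, 0.00 ± 0.18 and -0.01 ± 0.14 for the genotype, and C5ar1, the C5a receptor of myeloid cells, at -0.10 ± 0.16.

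**Figure D3:**
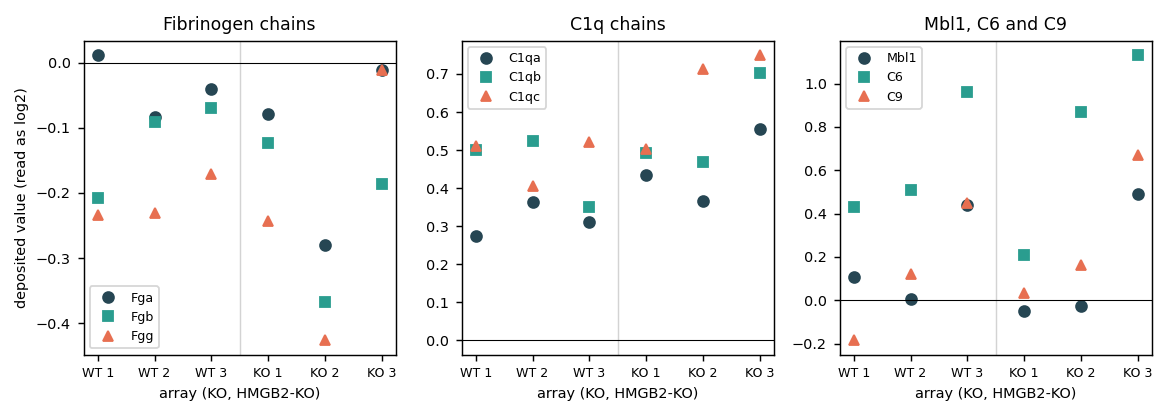
Deposited value, read as log2, of 3 groups of genes on each array: the fibrinogen chains (left), the C1q chains (middle) and Mbl1, C6 and C9 (right), with WT livers left and HMGB2-KO livers right of the grey line. Fibrinogen is lowest in HMGB2-KO liver 2, C1q highest in HMGB2-KO liver 3, and Mbl1, C6 and C9 highest in liver 3 of each genotype.

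The extremes of the members gathered in particular livers. HMGB2-KO liver 2 was the lowest of the 6 arrays for 21 of the 41 probe sets, 11 of 18 in coagulation and 10 of 23 in complement, against 21.8% of all probe sets. HMGB2-KO liver 3 was the highest for 13 of 41, of which 12 were complement, against 9.01% of all. WT liver 2 was the highest for 14 of 41, against 60.1% of all. The coagulation median was 0.06, 0.22 and 0.00 in WT livers 1, 2 and 3 and 0.09, -0.08 and 0.08 in HMGB2-KO livers 1, 2 and 3. The complement median was 0.11, 0.20 and 0.13 in WT and 0.08, 0.07 and 0.32 in HMGB2-KO.

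The median change was -0.05 for coagulation and -0.01 for complement, against -0.12 for all probe sets. Relative to the median probe set that is 0.08 and 0.11, with 13 of 18 and 19 of 23 members above it. Without WT liver 2 these relative medians were 0.02 and 0.05, and without HMGB2-KO liver 2 they were 0.17 and 0.16.

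**Figure D4:**
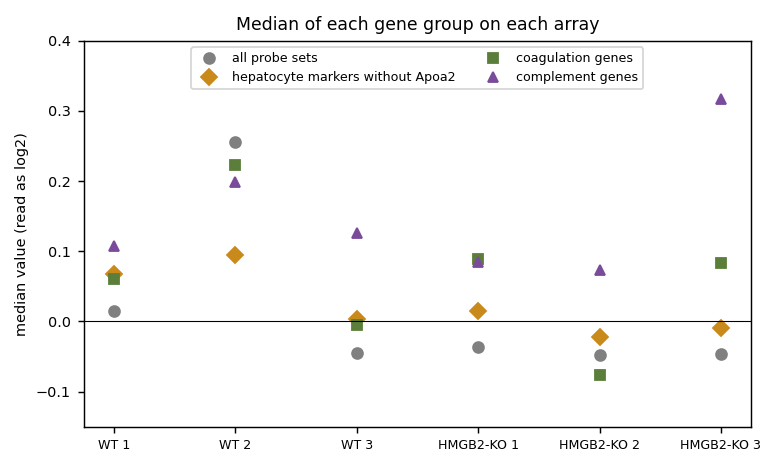
Median deposited value, read as log2, of all probe sets, of 8 hepatocyte markers and of the coagulation and complement genes on each array. In WT liver 2 all probe sets stand at 0.26 and the hepatocyte markers at 0.09; the coagulation median is lowest, at -0.08, in HMGB2-KO liver 2 and the complement median highest, at 0.32, in HMGB2-KO liver 3.

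A further 62 genes of both cascades were listed, of which 60 had 61 probe sets of their own. limma called 0 of them at an adjusted p of 0.05, and 0 reached an unadjusted p under 0.05. Their median change was -0.08. Fcna, ficolin A, a lectin pathway sensor made by macrophages, read 0.77, 0.65 and 0.54 in WT livers 1, 2 and 3 and 0.88, 1.04 and 0.97 in HMGB2-KO. All HMGB2-KO livers lay above all WT livers for Fcna, and the change was 0.31 ± 0.14 (SE, limma unadjusted p 0.0535, adjusted p 0.852). It was the 1 of the 61 with groups not overlapping and HMGB2-KO higher, against 0.779% of all probe sets. Groups did not overlap with HMGB2-KO lower for 1 of the 61 as well, against 10.9% of all. Pf4, a platelet chemokine that binds heparin, read 0.25, 0.26 and -0.02 in WT and 0.00, -0.32 and -0.29 in HMGB2-KO, which is a difference of -0.37 ± 0.16 (SE, unadjusted p 0.0502).

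By role, the other components and sensors of complement had changes from -0.20 to 0.31 over 11 probe sets, with C1rb at 0.14 ± 0.14 (SE) second to Fcna by p. The membrane and plasma regulators of complement ran from -0.38 to 0.18 over 12, with Cd59b, which blocks the pore, at -0.38 ± 0.18 (SE). The receptors ran from -0.47 to 0.12 over 9, with the integrin chains Itgam and Itgax at -0.47 ± 0.23 and -0.45 ± 0.23. Itgam read -0.86 in HMGB2-KO liver 1, against -0.25 to 0.20 in the other 5 livers.

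The inhibitors of coagulation ran from -0.18 to 0.16 over 9, with the protease inhibitor A2m at -0.18 ± 0.15 and antithrombin, Serpinc1, at -0.13 ± 0.14 (SE). The remaining initiators and cofactors ran from -0.37 to -0.08 over 6, with the endothelial protein C receptor, Procr, at -0.21 ± 0.17 behind Pf4. Fibrinolysis genes ran from -0.32 to 0.03 over 8, with urokinase, Plau, at -0.32 ± 0.25 and Habp2, a plasma protease, at -0.14 ± 0.16. Of the genes for vitamin K use and secretion of clotting factors, Vkorc1, the target of warfarin, stood at 1.35 ± 0.95. WT liver 2 read -3.99 against -0.23 to 0.04 elsewhere, and without that liver its change was 0.06. Mcfd2, which helps carry factors V and VIII out of the endoplasmic reticulum, stood at -0.16 ± 0.18.

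Of the 16 liver transcription factors and interleukin-6 signalling genes, 0 reached an unadjusted p under 0.05. The forkhead factors Foxa2 and Foxa1 stood at -0.37 ± 0.30 and -0.21 ± 0.22 (SE), both with WT liver 3 highest, at 0.87 and 0.72. The 16 ran from -0.46 to 0.17, with 8 above 0 and 8 below, where 77.4% of all probe sets lay below 0. Of the remaining cell type lists, platelets, neutrophils, stellate cells, adipocytes, red blood cells and T or B cells had 0 markers at an unadjusted p under 0.05, and cholangiocytes had 1 of 6, Spp1 at 0.55 ± 0.20 (SE), named after its value was seen. The cholangiocyte list had a median of -0.14, with 4 of 6 below 0, against 77.4% of all probe sets, down to -0.42 for Epcam.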

How the data were processed

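RNA of 3 liver samples labelled WT and 3 labelled HMGB2-KO was hybridised to 1-colour Clariom S mouse arrays with biotin-labelled cDNA, labelled in duplicate, per the labels' protocols. The authors deposited log2 values, so read from their range since no base is stated, centred gene by gene, in 22206 rows. A second deposited table held the same values. The software, background correction and build were not given in the sources used. Probe set brightness and detection are lost by the centring.

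The 22203 probe sets with a symbol were fitted as deposited with limma 3.58.1 in R 4.3.3 (lmFit, eBayes, two-sided), with a term for genotype, and p-values were adjusted by Benjamini-Hochberg over all of them. The looser rule required an unadjusted p under 0.05 together with a fold of 1.5 or more. The members and gene lists were chosen with earlier results of these data known. The rule for named genes took every member, with per-array values for the 14 of smallest p and 12 listed by name, and the 2 of smallest p of each further pathway list, of which 1 gene is not reported here. Per-array values of other members, and the cell type markers named, were chosen after their values were seen. The number of arrays limits precision. The procedure was tested on simulated data. Alternatives were array centring, quantile normalization, trend, robust eBayes, array weights, averaged probe sets, the title number as a block, a term for livers numbered 3, and leaving out arrays.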

Additional observations from a re-analysis of the deposited data

How the results depend on the processing

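Under every alternative run, limma called 0 member probe sets at the adjusted threshold; with array weights it called 6 of all probe sets, none of them a member. The looser rule, at 0 members otherwise, held for 1 with array weights and ran from 0 to 1 over fits without 1 replicate (1 without WT replicate 3), in both cases Mbl2, at -0.78 and -0.60. With array weights, an unadjusted p under 0.05 held for 3 of the 41 member probe sets, against 13.3% of all. Without WT replicate 3 it held for 1 of the 41, against 9.57% of all. Leaving out 1 replicate moved the coagulation median relative to the median probe set between 0.013 and 0.17 and the complement median between 0.053 and 0.24; centred without HMGB2-KO replicate 2, chosen after seeing the data, the coagulation median was 0.17. The title numbers were not taken to pair the livers (correlations of deviations 0.016, 0.134 and 0.275 for livers 1, 2 and 3). The replicate block called 0 members. Each number occurs once per genotype, so the block cannot alter a change, only its p. These medians therefore stayed at 0.08 and 0.11 by construction. Trend, robust eBayes, the replicate block, the liver 3 term and the second deposited table leave every change as it was by construction. By any amount, the sign turned for 15 of the 41 with arrays centred and 17 with quantile normalization. Centred without HMGB2-KO replicate 2, it turned for 19. Of 695 member changes under alternatives, the fixed ones included, 637 stayed within the replicate SD, 33 moved further and 25 took the other sign by more than that SD. With arrays centred, which adds about 0.12 to each change, these were Fga 0.032, Fgb 0.016, C1s1 0.066, Masp2 0.014 and C8g 0.11. With quantile normalization they were F8 0.030, Fga 0.034, Fgb 0.0345, C1s1 0.068, Masp2 0.0083 and C8g 0.13, and with array weights F12 -0.020. Centred without HMGB2-KO replicate 2, they were F10 0.17, F8 0.058, Fga 0.11, Fgb 0.085, Fgg 0.20, Proc 0.0049, Plg 0.16, C1s1 0.14, Masp2 0.030, Cfi 0.054, C8a 0.15, C8g 0.18 and C5ar1 0.098. Under the other alternatives, sign changes stayed within that SD. Signal over background could not be read from centred values.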
